A study of Mus musculus with 6 samples.

Results

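The genes that carry the light response of rod photoreceptors from the activated G protein to the cation channel were examined in DBA/2J females, whole retina by whole retina. DBA/2J is an inbred mouse strain with inherited pigmentary glaucoma, in which eye pressure rises in later life. The set held 9 of 18193 genes that had a probe set of their own on the array, Gnat1, Gnb1, Gngt1, Pde6a, Pde6b, Pde6g, Cnga1, Cngb1 and Sag, and its members were all 15 probe sets, of 45037 on the array without controls, whose only gene symbol in the platform annotation was one of these. The older retinas came from 3 animals of 8 months with elevated final eye pressure, at 25.3, 26.5 and 30.4 mmHg in retinas 1 to 3, and they were compared with retinas of 3 animals of 3 months with normal final pressure, at 19.1, 15.3 and 18.2 mmHg in retinas 1 to 3. Each Affymetrix array held 1 retina, and strain and sex were the same in all 6 animals. Since pressure was the criterion for choosing animals, the effects of age and of pressure cannot be told apart. Eye side also differed, since 8-month retina 1 and all 3-month retinas were left eyes while 8-month retinas 2 and 3 were right eyes.

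In a rod, light-activated opsin makes transducin exchange its nucleotide, and the freed transducin alpha subunit relieves the inhibitory gamma subunits of a phosphodiesterase. The phosphodiesterase then breaks down cyclic GMP, and the cyclic GMP-gated channel of the outer segment closes, which hyperpolarizes the cell. Gnat1, Gnb1 and Gngt1 encode the alpha, beta and gamma subunits of rod transducin, Pde6a and Pde6b the catalytic subunits of the phosphodiesterase, Pde6g its inhibitory subunit, and Cnga1 and Cngb1 the channel subunits. Sag encodes rod arrestin, which binds phosphorylated opsin and ends the response, so by its known role it belongs to recovery rather than activation. Gnb1 is also used by many other cell types, whereas the others are known mainly from photoreceptors and, for Sag, the pineal gland.

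Promoter sequences of 6 of the 9 genes were used, from RefSeq's annotation of GRCm38.p6, as the 250 bases before the annotated start on the transcript strand. They were searched on both strands for TAATCC, the core recognized by the photoreceptor homeodomain factor CRX, and for TGCTGA, the core of the element of the rod leucine zipper factor NRL. No match of one motif overlapped a match of the other in these windows. The 5 windows with a match are shown, with the matches in capitals, because they belong to the 3 genes, other than those among the brightest on the array, whose ages did not overlap (Pde6b, Cnga1 and Cngb1) and to Gngt1 and Sag.

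Pde6b, chr5:108388123-108388372, plus strand: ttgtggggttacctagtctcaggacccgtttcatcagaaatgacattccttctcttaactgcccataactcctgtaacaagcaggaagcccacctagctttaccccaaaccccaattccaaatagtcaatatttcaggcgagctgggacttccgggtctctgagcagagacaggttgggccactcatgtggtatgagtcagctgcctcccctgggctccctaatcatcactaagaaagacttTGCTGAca
Cnga1, chr5:72642753-72643002, minus strand: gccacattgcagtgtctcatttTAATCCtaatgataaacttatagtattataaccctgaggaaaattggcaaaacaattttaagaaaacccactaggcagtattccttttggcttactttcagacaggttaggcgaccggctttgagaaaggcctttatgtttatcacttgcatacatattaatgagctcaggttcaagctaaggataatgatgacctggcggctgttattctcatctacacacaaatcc
Cngb1, chr8:95306586-95306835, minus strand: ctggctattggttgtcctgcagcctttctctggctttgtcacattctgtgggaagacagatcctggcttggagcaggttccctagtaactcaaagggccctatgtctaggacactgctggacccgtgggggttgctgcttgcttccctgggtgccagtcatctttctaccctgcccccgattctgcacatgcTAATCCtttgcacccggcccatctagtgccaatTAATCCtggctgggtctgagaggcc
Gngt1, chr6:3993758-3994007, plus strand: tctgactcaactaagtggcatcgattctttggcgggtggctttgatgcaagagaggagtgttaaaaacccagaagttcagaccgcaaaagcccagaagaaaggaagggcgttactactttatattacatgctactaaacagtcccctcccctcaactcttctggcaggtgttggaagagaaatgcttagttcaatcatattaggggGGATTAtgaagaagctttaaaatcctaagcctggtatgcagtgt
Sag, chr1:87803430-87803679, plus strand: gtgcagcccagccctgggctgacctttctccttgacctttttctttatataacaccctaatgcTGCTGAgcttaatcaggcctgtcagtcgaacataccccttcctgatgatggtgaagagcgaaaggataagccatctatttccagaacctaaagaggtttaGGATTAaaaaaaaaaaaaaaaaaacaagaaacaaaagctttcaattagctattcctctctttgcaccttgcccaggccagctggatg

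TAATCC was found in 4 of the 6 windows, those of Cnga1, Cngb1, Gngt1 and Sag, and in 6.25% of all 32851 windows searched. In Cngb1 it occurred 2 times, starting 58 and 25 bases before the start. In Gngt1 and Sag it lay on the opposite strand, so that it reads GGATTA in the sequence above. TGCTGA was found in 2 of the 6 windows, 8 bases before the start in Pde6b and 187 bases before it in Sag, and in 16.1% of all windows. The window of Gnb1, with a GC content of 69.2%, held 0 matches of either motif.

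Levels are GCRMA log2 values, and a probe set was counted as measured where at least 3 of its 6 values reached 4. Of the 15 member probe sets, 14 were measured, 2 for Gnb1, 4 for Gngt1, 2 for Pde6g and 1 for each of the other genes. The remaining probe set of Gnb1 read between 2.26 and 2.31 at 8 months and between 2.27 and 2.37 at 3 months, near the floor of the scale. Beside rod genes the samples held markers of the other retinal cells. The mean log2 level of the 3 measured of 5 listed rod markers, Nrl, Prph2 and Rom1, was 11.60, 11.70 and 11.82 in 8-month retinas and 11.94, 12.07 and 11.85 in 3-month retinas, without overlap. Prph2 differed most of these, by -0.53, while Nrl differed by -0.03 and its ages overlapped. The 4 cone markers averaged 9.14 to 9.18 at 8 months and 9.35 to 9.52 at 3 months. The 4 ganglion cell markers averaged 9.23 to 9.28 at 8 months and 9.33 to 9.54 at 3 months, so the means of these lists were also lower without overlap. Gene by gene, the ages were apart for Opn1mw (-0.48) and Gnat2 (-0.44) but overlapped for Opn1sw and Arr3. Among ganglion cell markers they were apart only for Pou4f1 (-0.26) and overlapped for Nefl, Thy1 and Sncg. In bulk tissue, fewer rods and less RNA per rod cannot be told apart. The 3 measured of 5 lens markers averaged 11.98, 4.13 and 4.92 in 8-month retinas 1 to 3, against 7.30, 5.13 and 12.80 in 3-month retinas 1 to 3, so 8-month retina 1 and 3-month retina 3 were rich in lens RNA. Microglial markers, 3 measured of 4, averaged 7.06 to 7.48 at 8 months and 6.53 to 6.62 at 3 months. The 4 Müller glia markers averaged 10.91 to 10.98 at 8 months and 10.69 to 10.88 at 3 months. The RNA quality reading of Gapdh, 3′ minus 5′ signal, was 0.755 to 0.811 at 8 months and lay at 0.707 to 0.751 at 3 months, without overlap, whereas that of actin overlapped, at 1.71 to 1.84 at 8 months and 1.62 to 1.87 at 3 months. The part of these shifts in the results below was not tested, apart from leaving out the lens-rich retinas.

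Several members were among the brightest gene probe sets. A probe set was counted as near the top where its mean over the 6 arrays lay within 1 log2 unit of the highest mean of any probe set other than controls, 13.92, that is at or above 12.92. This held for 62 of 20973 measured probe sets and for 6 of the 14 members: those of Gnat1 and Sag, the brighter one of Gnb1 and 3 of Gngt1. Controls aside, the brighter Gnb1 probe set had the highest mean of all and Sag the next, and the brightest probe set of each array was Gnb1 or Sag. The brightest control probe set reached a mean of 14.62, so the scale itself did not end at 13.92. The median SD within an age was 0.043 near the top, against 0.168 for probe sets with a mean under 6, and the median absolute difference between ages was 0.053 against 0.132. Whether differences of the 6 bright probe sets are compressed was not tested.

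No member passed the test between ages over all measured probe sets. Of the 14 measured member probe sets, 0 passed limma's test with Benjamini-Hochberg adjustment at 0.05, where 0.00477% of all probe sets passed (1 of 20973), and the members' limma adjusted p lay between 0.304 and 0.940. The transducin probe sets were mostly slightly higher at 8 months, and the phosphodiesterase, channel and arrestin probe sets were all slightly lower. In sign, 8 of the 14 were lower, or 57.1%, against 59.4% of all measured probe sets. Their median log2 difference was -0.051, against -0.041 over all. At an unadjusted p under 0.05, 2 members were lower and 0 higher, where 10.3% of all probe sets were lower and 4.63% higher. The 2 were Pde6b and Cngb1, and the count was 0 when any one of the 8-month retinas or 3-month retina 2 was left out, and 1 without 3-month retina 1. Without 3-month retina 3 it was 2, but these were Pde6b and Cnga1. Without overlap of the ages, 4 members were lower and 1 higher, where 14.9% of all were lower and 6.89% higher. The shares of the 14 members in sign and at the unadjusted p were thus close to those of all probe sets.

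**Figure D1:**
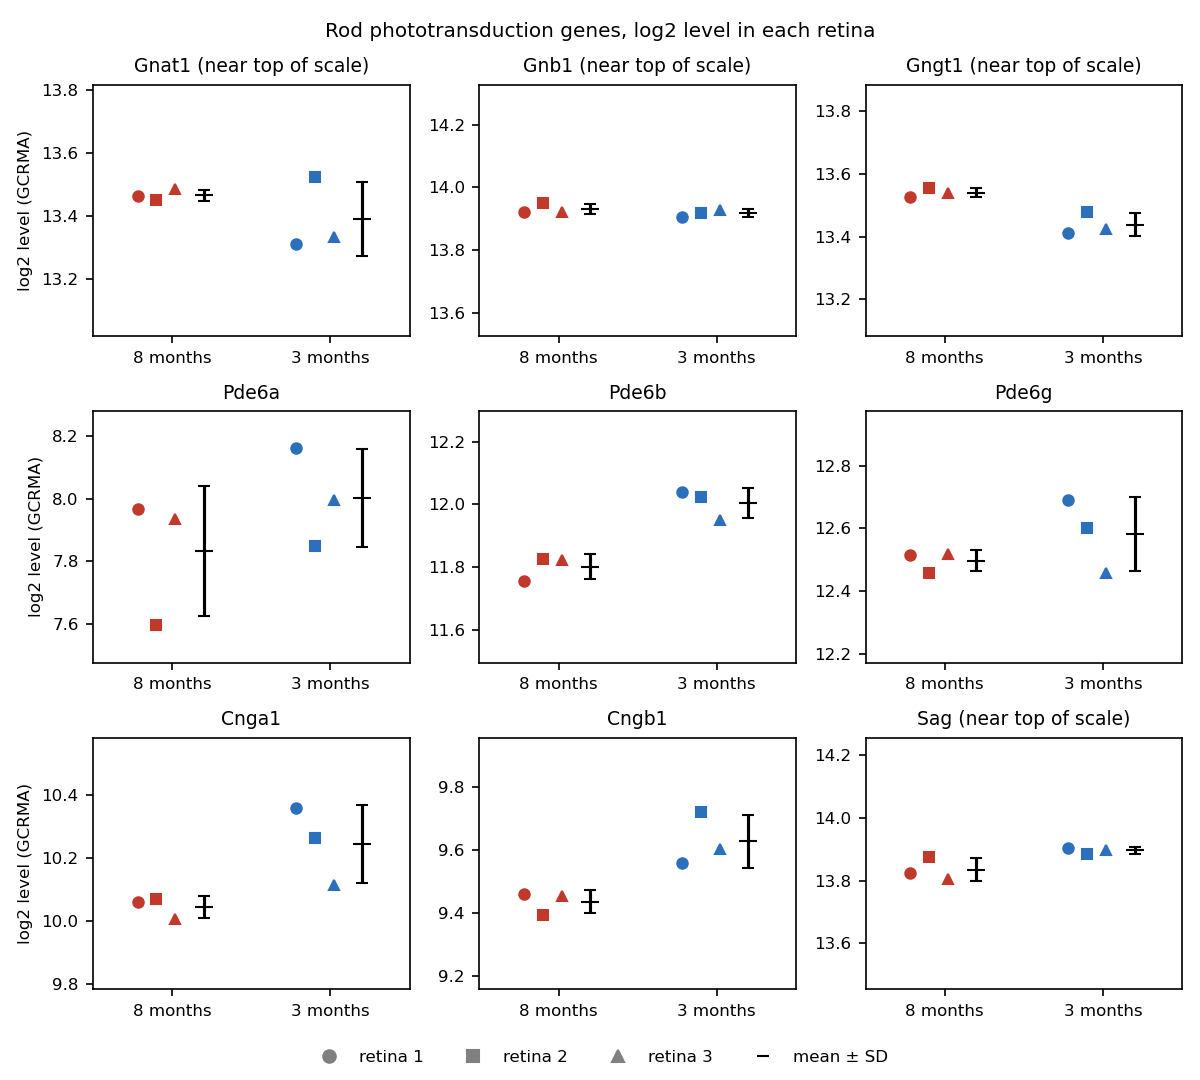
Log2 level (vertical axis, each panel spanning 0.8 log2 units around its own midpoint) of the brightest measured probe set of each of the 9 genes in the 3 retinas of 8 months (red, left) and the 3 of 3 months (blue, right), with mean and SD in black. Pde6b, Cnga1, Cngb1 and Sag show every 8-month retina below every 3-month retina, Gngt1 shows the opposite, and Gnat1, Gnb1, Pde6a and Pde6g overlap.

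Transducin alpha, Gnat1, read 13.46, 13.45 and 13.48 in 8-month retinas 1 to 3, against 13.31, 13.53 and 13.33 in 3-month retinas 1 to 3. The older retinas were nearly level and lay inside the range of the younger ones, of which retina 2 was the highest of all 6. The log2 difference was 0.08 with a 95% confidence interval from -0.13 to 0.28 (limma, adjusted p = 0.692), on a probe set near the top of the scale. It was 0.14 without 3-month retina 2, with the ages then apart, which fewer retinas make easier. Without 3-month retina 1 it was 0.037, and without 3-month retina 3 it was 0.048.

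The brighter probe set of Gnb1, the transducin beta subunit, read 13.92, 13.95 and 13.92 in 8-month retinas and 13.90, 13.92 and 13.93 in 3-month retinas. The ages overlapped, and the log2 difference was 0.014 (95% interval -0.15 to 0.18; limma, adjusted p = 0.940). Its other measured probe set lay well below the top, at 11.18, 11.13 and 11.07 in 8-month retinas and 11.24, 11.17 and 11.09 in 3-month retinas, and differed by -0.04 (interval -0.23 to 0.15). In both Gnb1 probe sets the 6 readings lay close together, whether the probe set was bright or well below the top. After median centring and after cyclic loess the brighter probe set was lower instead, by -0.0080 and -0.019.

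Gngt1, the transducin gamma subunit, was higher at 8 months in its brightest probe set, with readings of 13.53, 13.56 and 13.54 in 8-month retinas against 13.41, 13.48 and 13.42 in 3-month retinas. All older retinas lay above all younger ones, and the log2 difference was 0.10, a ratio of 1.07, which did not pass (95% interval -0.07 to 0.27; limma, adjusted p = 0.525). The other Gngt1 probe sets near the top differed by 0.12 and 0.17 with overlapping ages. The one at 0.17, whose probes may match other transcripts, read 12.62 in 3-month retina 3 against 13.05 to 13.13 in all other retinas, and without both lens-rich retinas its difference was 0.026. The fourth Gngt1 probe set was dim, at a mean of 6.02 at 8 months and 5.87 at 3 months, and differed by 0.15 with overlapping ages, or by -0.04 in a model that included eye side. Of the 7 transducin probe sets, 6 were higher in sign and 0 passed.

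Pde6b, a catalytic subunit of the phosphodiesterase, had the smallest p among the members. It read 11.76, 11.83 and 11.82 in 8-month retinas and 12.04, 12.02 and 11.95 in 3-month retinas, so that every older retina was below every younger one. The 8-month mean was 11.802 ± 0.041, and the 3-month mean 12.004 ± 0.047 (SD, 3 retinas each). The log2 difference was -0.20 ± 0.08 (SE), a ratio of 0.869, and it did not pass (95% interval -0.38 to -0.02; limma, unadjusted p = 0.0308, adjusted p = 0.304). Without both lens-rich retinas the difference was -0.21, and it was -0.25 in a model that included eye side.

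Pde6a, the partner catalytic subunit, varied more between retinas of an age. It read 7.97, 7.60 and 7.94 in 8-month retinas and 8.16, 7.85 and 8.00 in 3-month retinas. The ages overlapped, retina 2 being the lowest at each age, and the log2 difference of -0.17 did not pass (95% interval -0.48 to 0.14; limma, adjusted p = 0.563). It was -0.050 without 8-month retina 2 and -0.089 without 3-month retina 1. In a model that included eye side it was -0.034.

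Pde6g, the inhibitory subunit, was read by a pair of probe sets that ordered the younger retinas in the same way. The brighter read 12.52, 12.46 and 12.52 in 8-month retinas against 12.69, 12.60 and 12.46 in 3-month retinas, and the other read 12.34, 12.33 and 12.31 against 12.58, 12.43 and 12.28. In each, 3-month retina 1 was the highest of the 6 and 3-month retina 3, one of the lens-rich retinas, the lowest. The log2 differences were -0.09 and -0.10 with limma adjusted p of 0.661 and 0.633, neither passing. Without both lens-rich retinas they were -0.16 and -0.18, neither passing (limma, adjusted p = 0.715 for each). The ages then no longer overlapped, which fewer retinas make easier. Without 3-month retina 3 alone the differences were -0.15 and -0.18. Without 3-month retina 1 they were -0.032 and -0.025.

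The channel subunits were similar to each other in size and direction. Cnga1, the pore-forming alpha subunit, read 10.06, 10.07 and 10.01 in 8-month retinas and 10.36, 10.26 and 10.11 in 3-month retinas. Cngb1, the beta subunit whose gene also gives rise to the glutamic acid-rich proteins of the disc rim region, read 9.46, 9.39 and 9.45 in 8-month retinas and 9.56, 9.72 and 9.60 in 3-month retinas. In both genes all older retinas lay below all younger ones. The log2 difference was -0.20 ± 0.09 for Cnga1, a ratio of 0.871, and -0.19 ± 0.08 for Cngb1, a ratio of 0.876 (SE). Neither passed, with limma adjusted p of 0.354 for Cnga1 and 0.334 for Cngb1. Leaving out both lens-rich retinas gave -0.27 for Cnga1 and -0.22 for Cngb1, while cyclic loess gave -0.16 and -0.15.

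Sag, rod arrestin, read 13.82, 13.88 and 13.80 in 8-month retinas and 13.90, 13.88 and 13.90 in 3-month retinas. The older retinas all lay below the younger ones, but 8-month retina 2 at 13.875 and 3-month retina 2 at 13.884 were almost level. The log2 difference of -0.06 did not pass (95% interval -0.23 to 0.11; limma, adjusted p = 0.698), on a probe set near the top of the scale. The interval is wider than the range of the readings, as limma moderates the spread of each probe set toward that of all.

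**Figure D2:**
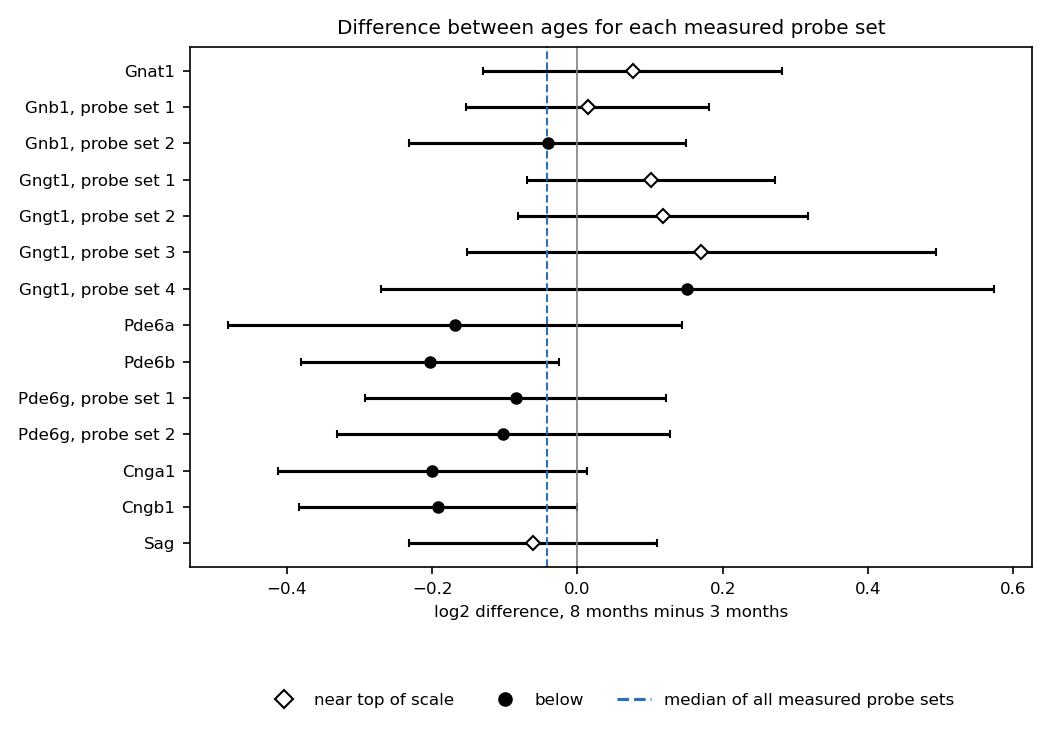
Log2 difference, 8 months minus 3 months, of the 14 measured member probe sets (rows) with limma's 95% confidence interval. Open diamonds are near the top of the scale, filled circles below it, and the dashed line is the median of all measured probe sets, -0.041; the interval excludes 0 for Pde6b and, narrowly, for Cngb1.

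Level and direction went together among the members. Of the 6 probe sets near the top, 5 were higher at 8 months, with a median log2 difference of 0.09. Most of the 5 were Gngt1 probe sets, the others being of Gnat1 and Gnb1, and Sag was the exception. Of the 8 below it, 7 were lower, with a median of -0.14, the dim Gngt1 probe set being the exception. Over all measured probe sets the direction also moved with level: 43.5% of the 62 near the top were lower, with a median of 0.018, and 45.7% of the 278 between a mean of 12 and that bound, with a median of 0.019. The share lower was 55.0% of the 1685 with means from 10 to 12, 62.4% of the 3576 from 8 to 10 and 66.9% of the 6098 from 6 to 8, with medians of -0.021, -0.049 and -0.082. It did not go on increasing below that, with 54.5% of the 9274 under 6 and a median of -0.019. Both Pde6g probe sets lay between 12 and the bound and were lower, and Pde6a lay between 6 and 8. Cyclic loess, which removes level-dependent shifts between arrays, moved the median of all probe sets to -0.0016 and left the difference of Pde6b at -0.20. It brought Gnat1 to 0.05, Gngt1 to 0.08 and Pde6a to -0.10, each closer to 0 than as deposited. The channel genes also moved closer. Sag moved away from 0, to -0.09, as did the dim Gngt1 probe set, to 0.21, and slightly both Pde6g probe sets. The brighter Gnb1 probe set changed sign, to -0.019. Whether transducin and the phosphodiesterase differ in their shift was not tested, since transducin was read mostly near the top and the phosphodiesterase below it.

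**Figure D3:**
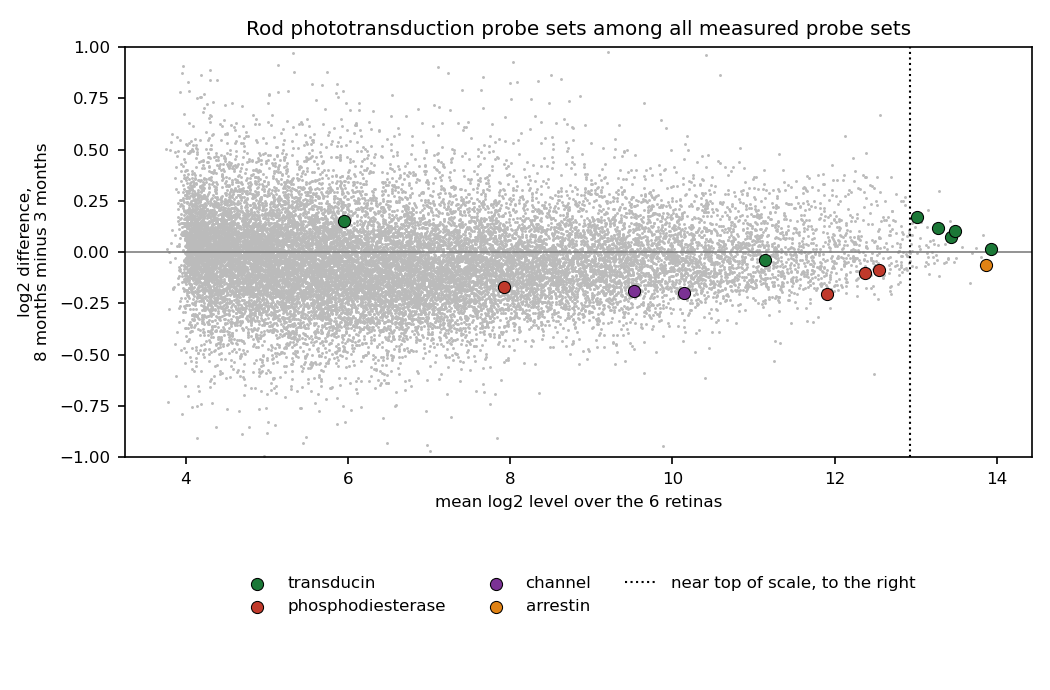
Log2 difference between ages, 8 months minus 3 months (vertical axis), against mean log2 level over the 6 retinas (horizontal axis) for all 20973 measured probe sets (grey, of which 30 lie outside the plotted range) and the members by subunit group. Most transducin points lie above 0 and to the right of the dotted line at 12.92, the bound for probe sets near the top, and the phosphodiesterase and channel points lie to its left and below 0.

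Averaged over the genes of a group and centred on the 6 retinas, the channel genes read -0.08, -0.11 and -0.11 in 8-month retinas and 0.12, 0.15 and 0.02 in 3-month retinas. The phosphodiesterase genes read -0.04, -0.16 and -0.03 in 8-month retinas and 0.18, 0.04 and 0.01 in 3-month retinas. The transducin genes read 0.02, 0.04 and 0.03 in 8-month retinas and -0.07, 0.03 and -0.05 in 3-month retinas. The older retinas lay below all younger ones for the channel and the phosphodiesterase, and within or above their range for transducin. Against the mean profile of the 9 genes over the 6 retinas, Pearson's r was 0.92 for Cnga1, 0.89 for Pde6b, 0.87 for Pde6g and 0.82 for Cngb1, but -0.26 for Gnat1, -0.77 for Gngt1 and -0.82 for Gnb1. These are descriptions over 6 arrays that share their scaling, and each gene is part of the mean. Among the other genes, of 11219 measured in all, those most like that profile were Cdr2, Slc17a7, Siva1, 2810029C07Rik and Aqp1. Pearson's r was 0.982 to 0.994 over the same 6 retinas. Such values can arise by chance when so many genes are searched over 6 retinas, and this was not tested. Slc17a7 encodes a vesicular glutamate transporter used at photoreceptor synapses, and Aqp1 a water channel.

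Cones use a parallel set of proteins, so each rod gene was set against its cone counterpart within each retina, in 8 pairs for which both were measured. Rod minus cone was compared between ages with a two-sided exact permutation test, which with 3 against 3 cannot go below p = 0.1, so no pair could pass. For Gnat1 minus Gnat2, the alpha subunits, the 8-month retinas stood at 0.54, 0.52 and 0.48 relative to the 3-month mean, against -0.18, 0.24 and -0.07 in the 3-month retinas. The difference was 0.51 (exact permutation p = 0.1, adjusted p = 0.267), made up of 0.08 in Gnat1 and -0.44 in Gnat2. For Pde6b minus Pde6c, the catalytic subunits, the difference was -0.55 (exact permutation p = 0.1, adjusted p = 0.267), made up of -0.20 in Pde6b and 0.34 in Pde6c. Pde6a minus Pde6c gave -0.51 with the same p values and shares its cone gene with the Pde6b pair. In these 3 pairs the ages did not overlap, and in each the cone gene differed more between ages than the rod gene. Gnat1 was read near the top of the scale and Gnat2 well below it, and the part of this in their pair was not tested.

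In the other 5 pairs the ages overlapped. The difference was 0.04 for Gnb1 minus Gnb3, 0.10 for Gngt1 minus Gngt2, -0.01 for Pde6g minus Pde6h, -0.23 for Cngb1 minus Cngb3 and -0.02 for Sag minus Arr3. Gngt1 minus Gngt2 was 0.019 without 8-month retina 1. Cngb1 minus Cngb3 was -0.076 without 8-month retina 3 and -0.35 without 3-month retina 1. The exact permutation p of these pairs lay between 0.3 and 1. Arr3, cone arrestin, had probe sets that disagreed, one of them differing by 0.49 against -0.05 for the brightest, and with the mean of its probe sets the Sag pair stood at -0.23. The cone channel subunit Cnga3 was not analysed here.

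**Figure D4:**
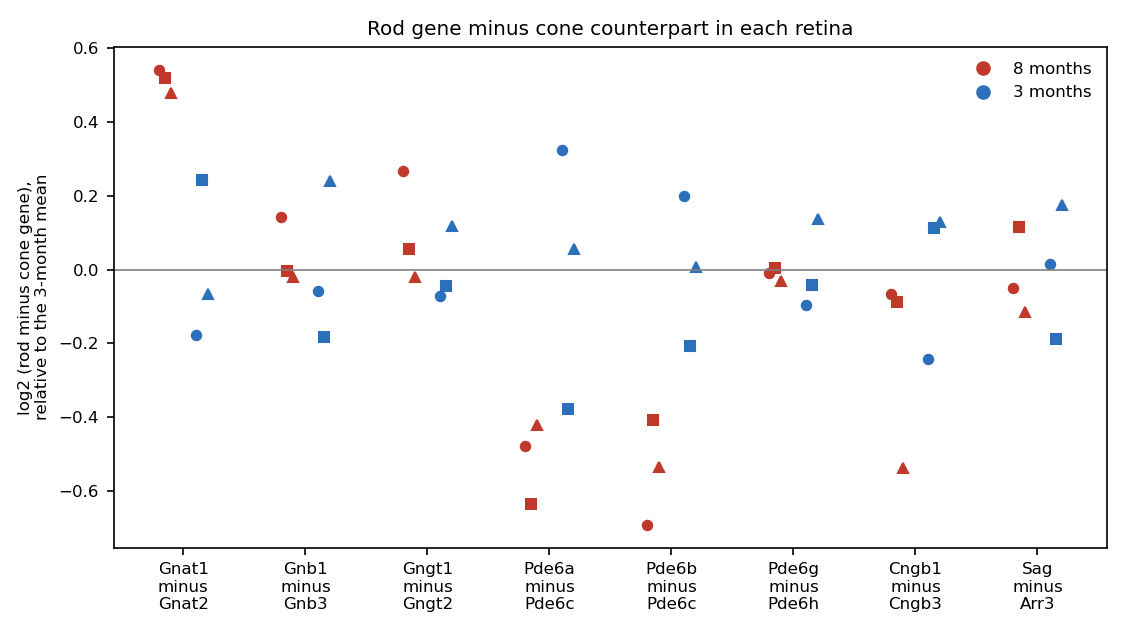
Log2 level of each rod gene minus that of its cone counterpart, relative to the mean of the 3-month retinas (vertical axis), in the 3 retinas of 8 months (red) and the 3 of 3 months (blue) for 8 pairs; circle, square and triangle are retinas 1, 2 and 3. The ages are apart for Gnat1 minus Gnat2 and for both pairs with Pde6c, and overlap in the other 5.

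Other genes of the rod cascade were taken by their brightest measured probe set, and 0 passed over all probe sets in any of the following lists. Over all 11219 measured genes, 63.5% were lower in sign, with a median log2 difference of -0.058, against 6 of the 9 rod genes described here with a median of -0.085. Of 9 measured recovery genes, 6 were lower and 3 higher, with a median of -0.043. Rgs9bp, the membrane anchor of the transducin GTPase-accelerating complex, differed by -0.23 and Rgs9, the GTPase accelerator itself, by 0.35. The opsin kinase gene Grk1 differed by -0.36 on a dim probe set, at a mean of 4.86 at 8 months and 5.22 at 3 months. Of 8 genes for assembly and transport of G proteins or photoreceptor proteins, 6 were lower and 2 higher, with a median of -0.21. The 2 higher were Pdcl, by 0.31 and without overlap of the ages, and Rp2, by 0.18 with overlap. Unc119, a carrier of acylated transducin alpha, differed by -0.24, Tulp1, a photoreceptor transport protein, by -0.45, and Ric8b, a G protein alpha chaperone, by -0.37. Of 9 disc and cilium genes, 8 were lower, with a median of -0.11. The disc rim genes Prph2 and Rom1 differed by -0.53 and -0.19 and Rp1l1, an axonemal protein gene, by -0.25. Of 9 measured cone genes, 7 were lower, with a median of -0.045. Gnat2, Opn1mw and Pde6c had the smallest p there, with log2 differences of -0.44, -0.48 and 0.34 and limma adjusted p between 0.186 and 0.289.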

How the data were processed

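Whole-retina RNA of 6 DBA/2J females, 20 ng each, was amplified and labelled per the labels' protocols. The authors' deposited table holds a log2 value for each probe set, and the submitters' processing notes name GCRMA 1.1.0 and R 1.9.0; GCRMA's options, scan dates and detection calls are not given in the sources used here. Array medians lay between 3.70 and 3.74. Of 45101 probe sets, 64 controls were left out, and 20973 (46.6%) with at least 3 of 6 values at or above 4 were kept. The platform annotation gave 1 gene for 34945 probe sets, several for 932 and none for 9160. The kept probe set with the highest mean stood for its gene.

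The comparison of ages used limma 3.58.1 (lmFit, eBayes; R 4.3.3), two-sided and without covariates, and p-values were adjusted after Benjamini and Hochberg across every kept probe set. The code was tested on simulated data with known differences. Rod and cone pairs were tested in SciPy 1.17.1. The number of arrays limits the precision. Alternatives were other filters, scalings and probe sets, an intensity trend, eye side or replicate number in the model, and left-out retinas.

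The named genes were all members, their cone counterparts, up to 3 genes of smallest p from each other list and the 5 most like the members' mean profile. Cell type markers and the 2 higher assembly genes were named as well. Members and lists were chosen with earlier results of these data known. The replicates are separate animals. Same-numbered retinas did not pair across ages, their deviations correlating at -0.14, 0.064 and -0.28.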

Additional observations from a re-analysis of the deposited data

How the results depend on the processing

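The result that 0 members passed over all probe sets held under all 17 alternatives run, with the members' smallest limma adjusted p between 0.213 and 0.664. The median log2 difference of the members, -0.051, was -0.14 without probe sets near the top and ranged from -0.070 to -0.015 when 1 retina was left out. The count of 2 lower members at an unadjusted p under 0.05 was 1 after quantile normalization and after cyclic loess. It was also 1 without the less specific probe sets and without those near the top, and in each of these cases the member was Pde6b. Without both lens-rich retinas it was 1 as well, but the member was Cnga1 (limma, unadjusted p = 0.0498), neither Pde6b nor Cngb1. The count was 0 with eye side as a covariate and 0 with the replicate number as a block. It ranged from 0 to 2 when 1 retina was left out, and without 3-month retina 3 the 2 were Pde6b and Cnga1. With no filter, and with an intensity trend, the count was 3, with Cnga1 added, and 1 member, Gngt1, was higher at that p. Without probe sets near the top, 0 members were higher without overlap. Without both lens-rich retinas 3 were higher and 7 lower, and with 1 retina left out 1 to 4 were higher and 4 to 6 lower. With fewer retinas the ages separate more easily, and the share of all probe sets was not counted for these cases. The difference of Gnb1, 0.014, was -0.0080 after median centring and -0.019 after cyclic loess. Among pairs, Gngt1 minus Gngt2 was -0.0059 after quantile normalization and Pde6g minus Pde6h was 0.065 with the mean of all probe sets. When 1 retina was left out, Gnb1 minus Gnb3 ranged from -0.051 to 0.16, Pde6g minus Pde6h from -0.059 to 0.057, Gngt1 minus Gngt2 from 0.019 to 0.16, Cngb1 minus Cngb3 from -0.35 to -0.076 and Sag minus Arr3 from -0.11 to 0.071. Except as given, the cause was not tested. The brightest probe sets of the 8 other genes kept their direction in every alternative that held them. The limits are 3 retinas per age and eye side, which overlaps with age; compression of differences near the top of the scale was not tested.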
